A study of Mus musculus with 12 samples.

Results

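Expression of 10 mouse genes of the oxygen-sensing pathway was followed: the hypoxia-inducible factor subunits Hif1a and Epas1, the oxygen sensors Egln1 and Egln3, and the target genes Vegfa, Adm, Bnip3, Ndrg1, P4ha1 and Ankrd37. They were taken by symbol from the deposited count table, where each of the 10 matched 1 of 47729 genes. All 10 passed the filter on low counts and were among the 15232 genes tested. Messenger RNA was measured by polyA RNA sequencing in peritoneal macrophages of C57BL/6 mice, in 4 groups of 3 libraries. In 2 groups the mice had received thioglycollate (TG), an irritant that recruits macrophages into the peritoneum, and cells were collected 4 days later. In the other 2 groups they had received repeated injections of IL-4 complexed with an antibody (IL4c), a stimulus of alternative activation, and cells were collected 2 days after the last injection. Within each injection, attached cells were cultured for 24 h with SPARC at 20 ug/ml or left untreated. SPARC is a secreted protein of the extracellular matrix. All groups share the strain, the selection by attachment to plastic and the culture step, and no control protein is given for the untreated wells. The sources used here give no age and do not say how many mice stand behind a library, so the p-values measure the spread between these libraries, which may be partly technical.

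HIF-1 alpha (Hif1a) and HIF-2 alpha (Epas1) each pair with a common partner, Arnt, and bind the core of the hypoxia response element in DNA. When oxygen is present, prolyl hydroxylases of the Egln family mark the alpha subunits for destruction by the Vhl ubiquitin ligase, so much of the control lies on protein that RNA sequencing does not see. In macrophages the Hif1a transcript is known to respond to inflammatory signals as well, and Epas1 is known from alternatively activated cells.

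The core of the hypoxia response element, ACGTG or GCGTG, was searched on both strands in the 250 bases before gene starts given by RefSeq. Promoter windows on GRCm38.p6 were at hand for 8 of the 10 genes, with a window at each of 2 starts for Vegfa, and Epas1 and Ndrg1 had no entry. The Hif1a and Ankrd37 windows lie inside the span that GENCODE gives these genes, so they stand at internal starts, as does 1 Vegfa window. At least 1 core lay in 8 of the 9 windows, against 38.6% of 32851 promoters and 54.3% of the 13034 promoters of tested genes. The window without a core is that at the upstream start of Vegfa. The matches in the internal Vegfa window lie in an annotated exon, as do the Egln1 match at -68 and the Ankrd37 match at -6 bases from the start. The windows of P4ha1 and Bnip3 are shown first because the call of P4ha1 held under every alternative tried in both injections and Bnip3 had the largest log2 value with TG among the genes called without the block. Capitals mark the cores, which read CACGT or CACGC where they lie on the other strand. The P4ha1 stretch is chr10:59323046-59323295 on the plus strand and ends at the base before the start. The Bnip3 stretch is chr7:138909520-138909756 on the minus strand and leaves out the bases that lie in an annotated exon of the gene.
P4ha1: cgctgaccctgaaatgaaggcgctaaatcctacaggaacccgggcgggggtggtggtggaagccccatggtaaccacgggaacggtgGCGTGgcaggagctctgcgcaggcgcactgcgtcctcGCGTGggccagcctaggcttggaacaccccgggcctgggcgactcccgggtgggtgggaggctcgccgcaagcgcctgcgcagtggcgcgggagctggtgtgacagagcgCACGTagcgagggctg
Bnip3: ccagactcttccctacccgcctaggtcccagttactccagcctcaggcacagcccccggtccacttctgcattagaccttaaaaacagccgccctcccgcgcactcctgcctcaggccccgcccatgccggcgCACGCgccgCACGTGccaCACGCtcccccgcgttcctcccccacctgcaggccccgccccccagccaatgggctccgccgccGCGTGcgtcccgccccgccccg

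Shorter sites are shown for 4 other genes, to set the core in its flanks, and the Vegfa site lies within an annotated exon of Vegfa. The Egln1 site is chr8:124949364-124949392 on the minus strand, the Ankrd37 site chr8:45999989-46000017 on the minus strand, the Hif1a site chr12:73907720-73907748 on the plus strand and the Vegfa site chr17:46025365-46025393 on the minus strand.
Egln1: gcccggcccgccGCGTGcgcgcggccccc
Ankrd37: accttcactgcgCACGCGTGctgcggccg
Hif1a: cacacagacaagCACGTGagcggggcagc
Vegfa: aagccctggagtGCGTGccCACGTcagag
The Hif1a site holds CACGTG, which reads as a core on both strands and was counted as 2 matches. The Bnip3 window held the most matches, 5, of which 4 lay between -117 and -95 bases from the start. Ankrd37 had 4 matches, P4ha1 and Hif1a 3 each, Egln1 and Adm 2 each and Egln3 1. The Vegfa window at the upstream start held none, and its window at an internal start held 2. Among promoters of tested genes, 26.3% held 2 or more matches and 11.3% held 3 or more. A match is a run of letters and no measurement of binding.

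**Figure D1:**
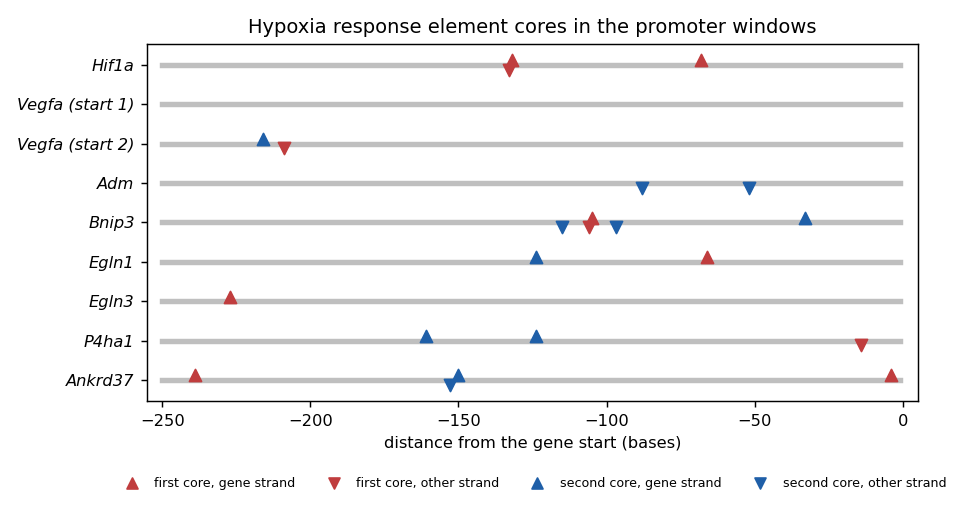
Position of hypoxia response element cores in the 250 bases before RefSeq starts, in bases from the start, for the 9 windows of 8 genes. The first core is ACGTG and the second GCGTG, triangles point up for the gene's own strand and down for the other, and the Bnip3 window holds the most matches, 5.

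The 12 libraries held between 31501941 and 42288785 counts. Levels are given as CPM, counts scaled to a common library size, and 3 counts equal 0.0707 to 0.0974 CPM. Macrophage markers (8 genes) summed to between 12892 and 34909.8 CPM in every library. Both TG libraries numbered 1 stood apart: 10 B cell markers summed to 2375 CPM in the untreated and 1835 CPM in the SPARC library, while the remaining TG libraries had sums of 172 to 277 CPM and the IL4c libraries of 77.3 to 389 CPM. The B cell sum was lower with SPARC in all 6 pairs of the same number, with IL4c at 389, 271 and 153 CPM untreated and 172, 129.8 and 77.3 CPM with SPARC, where Cd22 was called lower. The eosinophil sum (6 genes) was also lower in all 6 pairs, at 3.72 to 22.7 CPM untreated and 1.04 to 9.63 CPM with SPARC, and Ccr3 was called lower with IL4c. Markers of mesothelial cells and fibroblasts (8 genes) were higher with SPARC in all 3 TG pairs, in sums of 5.82, 128 and 113 CPM untreated and 30.4, 191 and 220.3 CPM with SPARC, and none of the 6 tested was called there. With IL4c this list summed to between 6.66 and 18.1 CPM untreated and to between 61.6 and 113 CPM with SPARC, where 1 of its 6 tested genes, Dcn, rose. Neutrophil markers (9 genes, 2 tested) summed to between 6.96 and 11.7 CPM untreated and to between 26.9 and 53.2 CPM with SPARC, over both injections. Of the 2 tested, S100a8 was called higher with TG, and S100a8 and Camp were called higher with IL4c. The others, S100a9, Ly6g, Ngp, Ltf, Mpo, Elane and Cxcr2, did not pass the filter on low counts. The macrophage sum was lower with SPARC in the IL4c groups, at 12892 to 18779 CPM against 20528 to 27802 CPM. Lyz2 was its largest part, at 4444 to 9577 CPM with SPARC against 11679 to 20372 CPM untreated. There Mertk and Lyz2 fell, Fcgr1 rose, and no other macrophage marker was called in either direction. The part of these marker differences in the results was not tested, and values without the 2 TG libraries are given where they change a call. Libraries with the same number within an injection deviated together from their group means, so values of a fit with the number as a block are given where they change a call. In bulk RNA, fewer cells of a type and less RNA per cell cannot be told apart.

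With SPARC, Egln1 and P4ha1 rose in both injections, Bnip3 and Ankrd37 rose with TG, and Epas1 fell with IL4c. In all, 4 of the 10 genes rose and none fell with TG, by the quasi-likelihood test of edgeR at an adjusted p under 0.05 over all tested genes. Of all tested genes 11.3% passed there, 6.73% as higher and 4.52% as lower. With IL4c, 2 of the 10 rose and 1 fell, where 27.8% of all genes passed, 15.1% as higher and 12.7% as lower, so the count of 3 is near the background. The median log2 fold change of the 10 genes was 1.24 with TG and 0.54 with IL4c, against -0.03 and 0.00 over all tested genes. With the number as a block, 6 rose and 1 fell with TG, where 27.3% of all genes passed (14.3% higher, 13.1% lower), and 5 rose and 2 fell with IL4c, where 45.2% passed (22.8% higher, 22.4% lower). Another scaling moved the split over all genes: with TG, 59.8% of calls were higher, but 44.7% with total counts and 47.6% on log2(FPKM + 1), while 4 of the 10 genes were called higher with total counts as well. Leaving out TG untreated library 3, TG SPARC library 2 or TG SPARC library 3 lowered the TG count to 2. Leaving out IL4c untreated library 1 or 2, IL4c SPARC library 1 or 2, or either TG library numbered 2 lowered the IL4c count to 1.

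Libraries with SPARC lay wholly above untreated libraries for 6 of the 10 genes with TG and wholly below for none, where 16.2% and 14.2% of all tested genes did so. With IL4c they lay above for Egln1 and P4ha1 and below for Epas1 and Vegfa, where 25.5% and 24.8% of all tested genes did so.

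**Figure D2:**
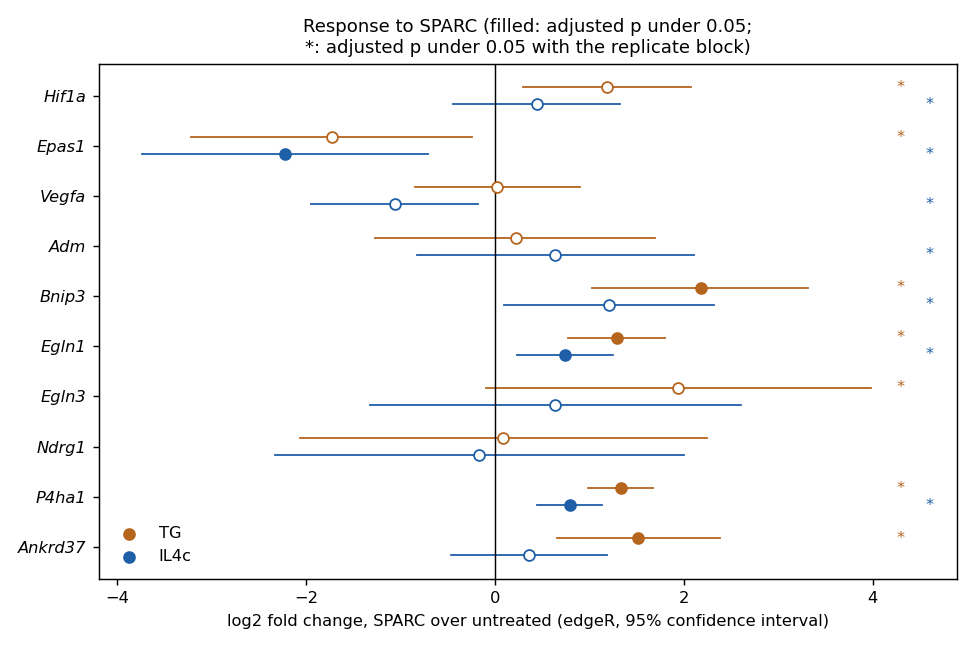
Log2 fold change of each gene with SPARC over untreated, with its 95% confidence interval from the edgeR fit, for TG (brown) and IL4c (blue). Filled points passed at an adjusted p under 0.05, stars mark genes that passed with the replicate block, and P4ha1 and Egln1 are the genes filled in both injections.

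Counted over libraries of the same number, 6 of the 10 genes were higher with SPARC in 6 of 6 pairs: Hif1a, Bnip3, Egln1, Egln3, P4ha1 and Ankrd37. That pattern was seen in 20.7% of all tested genes. Epas1 was lower in 6 of 6 pairs, as were 21.9% of all tested genes. Vegfa, Adm and Ndrg1 moved in both directions among the 6 pairs.

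**Figure D3:**
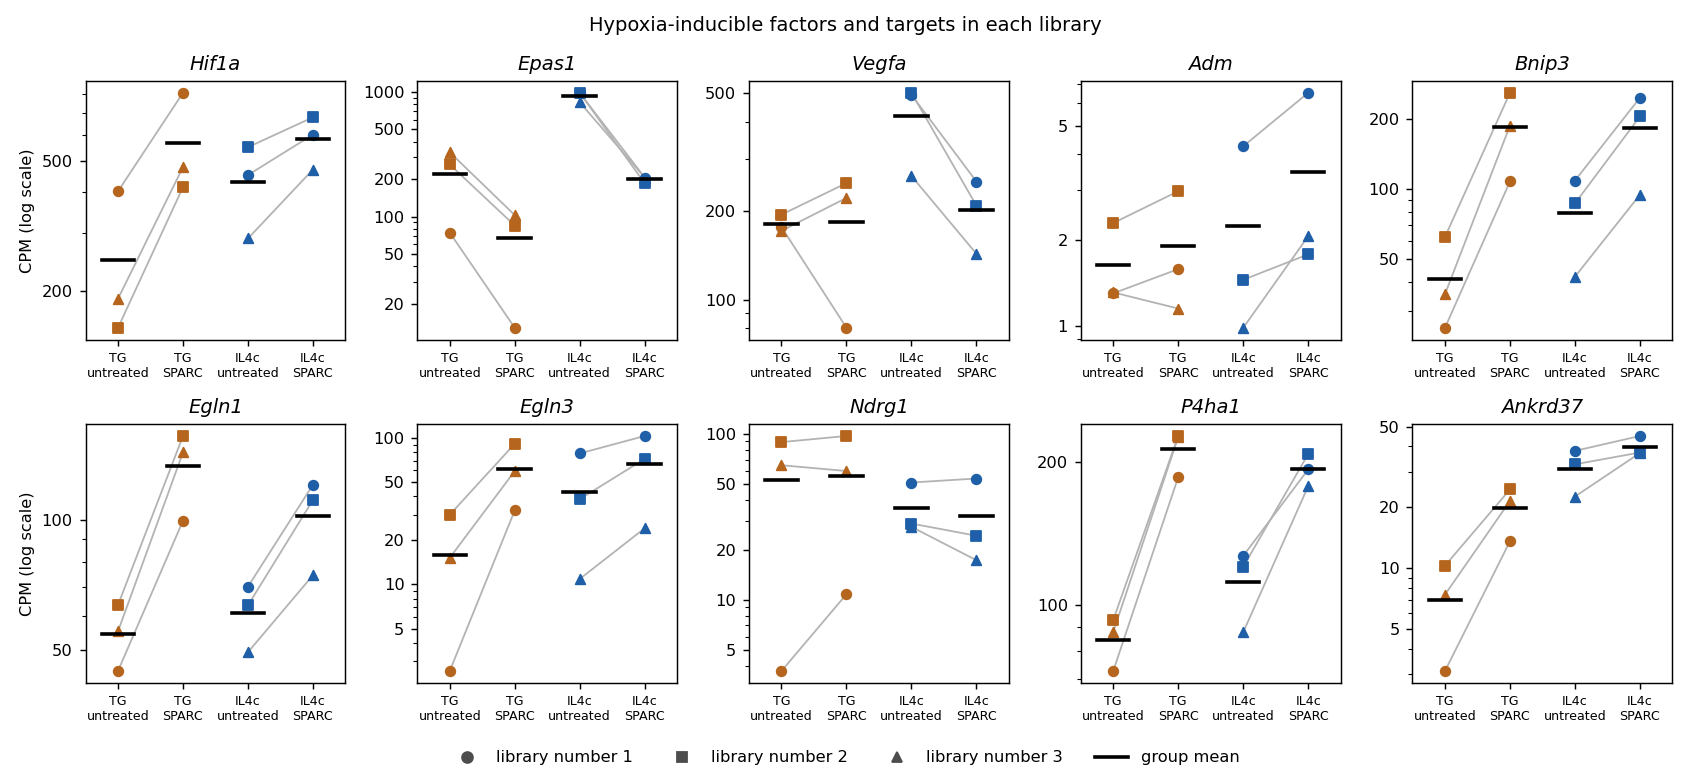
CPM of each gene in each of the 12 libraries on log axes, with grey lines joining libraries of the same number within an injection and black bars at the group mean. Egln1 and P4ha1 show no overlap between SPARC and untreated libraries in either injection, and the TG libraries numbered 1 (circles) are lowest for Epas1 and Ndrg1.

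Hif1a (chr12:73901375-73947530, plus strand, GRCm38) encodes the HIF-1 alpha subunit. In TG macrophages it stood at 403, 154 and 189 CPM untreated and at 807, 415 and 478 CPM with SPARC in libraries 1 to 3. The lowest SPARC library lay above the highest untreated one, and library 1 was the highest in both groups. The log2 fold change was 1.19 ± 0.40 (SE, 3 against 3 libraries) with an edgeR adjusted p of 0.0872. With the block it was 1.26 (adjusted p 5.96e-04), leaving out the pair of TG libraries numbered 1 gave 1.40 (0.0147), and leaving out TG untreated library 1 alone gave 1.72 (0.0130). DESeq2 gave 1.19 (0.0169). Over 23 alternatives the adjusted p lay between 5.96e-04 and 0.219, and 4 of them called it.

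With IL4c, Hif1a stood at 452, 550.0 and 289 CPM untreated and at 601, 679 and 469.9 CPM with SPARC. The groups overlap, although each SPARC library exceeded the untreated library of its number. The log2 fold change was 0.44 ± 0.39 (SE) with an adjusted p of 0.450 by edgeR, and with the block 0.47 and 0.0128. Over 23 alternatives the adjusted p ran from 0.0128 to 0.746, and the block alone called it. An antisense gene, Gm15283, overlaps Hif1a and had 0 to 29.0 counts per library. Gm49321, a protein-coding gene on the same strand, also overlaps it and has no entry of that name in the count table.

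Epas1 (chr17:86753700-86833410, plus strand), the HIF-2 alpha subunit, was lower with SPARC. IL4c libraries had 980.3, 983 and 825 CPM untreated and 206, 185 and 206 CPM with SPARC. All 3 untreated libraries lay far above all 3 SPARC libraries. AC096777.1 overlaps Epas1 on the same strand and has no entry of that name in the count table. The fall was -2.22 ± 0.68 on the log2 scale (SE, edgeR adjusted p 0.0350), to 0.214 of the untreated level. Leaving out any 1 IL4c library or either TG library numbered 2 ended the call (0.0521 to 0.104), as did leaving out both IL4c libraries numbered 3 (0.141), no low-count filter (0.0812) and log2(FPKM + 1) with no filter (0.0574), while the log2 value stayed between -2.31 and -2.17 over 23 alternatives.

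In TG macrophages Epas1 stood at 74.6, 262 and 328 CPM untreated and at 12.9, 85.0 and 103 CPM with SPARC. Library 1 was the lowest in both groups, and the groups overlap through the untreated library 1. The log2 value was -1.73 ± 0.67 (SE, edgeR adjusted p 0.130). With the block it was -1.93 with an adjusted p of 7.33e-04. Leaving out both libraries numbered 1 gave -1.63 with 3.86e-04. DESeq2 gave -1.73 with 0.0373. Over 23 alternatives the adjusted p lay between 3.86e-04 and 0.338, and 3 of them called it. Epas1 is also abundant in endothelial cells, whose 7 markers summed to 5.66 to 6.36 CPM in the IL4c untreated group, where Epas1 was highest, and to 13.8 to 16.4 CPM with SPARC. Among those markers Emcn was at 0 in every library, and Cdh5 rose with IL4c, from 0.182 to 0.612 CPM untreated to 4.22 to 5.75 CPM with SPARC. With TG none of the 4 tested endothelial markers was called, and the list summed to 12.3 to 24.4 CPM untreated and 11.1 to 23.2 CPM with SPARC. The part of these markers in the Epas1 result was not tested.

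Because CPM values do not allow levels of different genes to be compared, the ratio of Hif1a to Epas1 was taken on the deposited FPKM values, which are scaled by gene length. The ratio was 6.84, 0.765 and 0.693 in TG untreated libraries and 78.7, 6.18 and 5.75 with SPARC. With IL4c it was 0.580, 0.709 and 0.440 untreated and 3.69, 4.57 and 2.84 with SPARC. Epas1 exceeded Hif1a in 5 of the 6 untreated libraries and in none of the 6 SPARC libraries. The rise of the log2 ratio between libraries of the same number was 3.53, 3.01 and 3.05 with TG and 2.67, 2.69 and 2.69 with IL4c. An exact two-sided permutation test over libraries gave p = 0.10 with IL4c, the smallest that 3 against 3 allows, and p = 0.30 with TG, where library 1 of the untreated group overlaps the SPARC group. The test makes no use of the pairs and could not fall below 0.10 in either injection. The ratio was higher with SPARC in 6 of 6 pairs. That follows from Hif1a being higher and Epas1 lower in all 6, and is no further support.

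**Figure D4:**
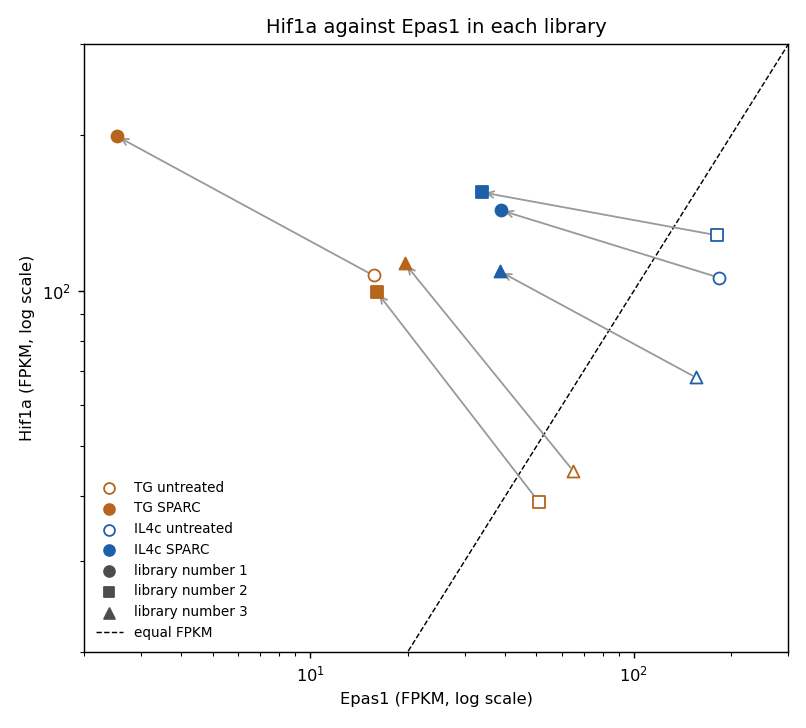
Hif1a against Epas1 in FPKM on log axes, 1 point per library, with arrows from the untreated to the SPARC library of the same number and a dashed line at equal FPKM. All 6 arrows point up and to the left, and all 6 SPARC libraries lie above the line.

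Of the oxygen sensors, Egln1 (chr8:124908587-124949324, minus strand) encodes the prolyl hydroxylase PHD2, the main enzyme that marks HIF alpha subunits for destruction and itself a known HIF target. With TG it stood at 44.7, 63.5 and 55.2 CPM untreated and at 99.4, 156 and 143 CPM with SPARC, with no overlap. It rose by 1.29 ± 0.23 on the log2 scale (SE, edgeR adjusted p 0.00893), and the call held in all 23 alternatives. The IL4c libraries stood at 70.0, 63.4 and 49.4 CPM untreated and at 120.4, 111 and 74.4 CPM with SPARC, again with no overlap. It rose by 0.74 ± 0.23 (SE, edgeR adjusted p 0.0369), and with the block the adjusted p was 2.82e-04. Leaving out any 1 of 9 libraries (each IL4c untreated library, IL4c SPARC libraries 1 and 2, and TG libraries 2 and 3 of either treatment) raised the adjusted p to between 0.0506 and 0.144. It was also above 0.05 without both IL4c libraries numbered 3 (0.0663), with no low-count filter (0.0664) and on log2(FPKM + 1) with no filter (0.0626).

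Egln3 (chr12:54178981-54203860, minus strand), the related sensor PHD3, varied widely among libraries of a group. With TG it stood at 2.57, 29.9 and 15.2 CPM untreated and at 32.0, 91.2 and 59.4 CPM with SPARC, with the lowest value of each group in library 1. The groups do not overlap, but the log2 value of 1.94 ± 0.91 (SE) had an edgeR adjusted p of 0.209. With the block it was 2.30 with an adjusted p of 0.00712, the sole call among 23 alternatives, whose adjusted p reached 0.421. In the IL4c groups it stood at 78.3, 38.2 and 10.9 CPM untreated and at 103, 71.9 and 24.2 CPM with SPARC, and the log2 value was 0.64 ± 0.88 (SE, edgeR adjusted p 0.632). It was 0.19 without IL4c untreated library 3, 0.20 without IL4c SPARC library 1, 1.05 without IL4c SPARC library 3 and 1.43 without IL4c untreated library 1. Library 1 was the highest and library 3 the lowest in both IL4c groups.

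P4ha1 (chr10:59323296-59373304, plus strand) encodes a prolyl hydroxylase of collagen and is a classical HIF target. With TG it stood at 72.7, 93.1 and 87.8 CPM untreated and at 186, 227 and 226 CPM with SPARC. In IL4c macrophages it stood at 127, 120.4 and 87.7 CPM untreated and at 193, 208 and 178 CPM with SPARC. In both injections every SPARC library exceeded every untreated library, and the spread within a group was small. It rose by 1.33 ± 0.15 with TG (log2, SE, edgeR adjusted p 0.00120) and by 0.79 ± 0.15 with IL4c (edgeR adjusted p 0.00443). Both calls held in all 23 alternatives.

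Bnip3 (chr7:138890836-138909519, minus strand), a mitochondrial protein that promotes removal of mitochondria by autophagy, had the largest log2 value of the 10 genes with TG in the fit without the block, while with it Egln3 was at 2.30 and Bnip3 at 2.19. It stood at 25.3, 62.3 and 35.3 CPM untreated and at 108, 260.4 and 188 CPM with SPARC. The groups do not overlap, and library 1 was lowest in each. It rose by 2.18 ± 0.51 (log2, SE, edgeR adjusted p 0.0252), or 4.52-fold. The adjusted p was 0.0569, 0.0957, 0.0803 and 0.0629 without TG untreated library 1, TG untreated library 3, TG SPARC library 2 and TG SPARC library 3 in turn. It was 0.0547 with no low-count filter and 0.0719 with the compared groups alone.

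With IL4c, Bnip3 stood at 109, 86.9 and 42.0 CPM untreated and at 248, 206 and 94.7 CPM with SPARC. The groups overlap because library 3 was low in both. The log2 value was 1.21 ± 0.50 (SE, edgeR adjusted p 0.0995). With the block it was 1.20 with an adjusted p of 7.49e-05, and DESeq2 gave 1.20 with 0.0460. Over 23 alternatives the adjusted p ran from 7.49e-05 to 0.278, and 2 of them called it. Expected counts of Bnip3 were not whole numbers in 12 of 12 libraries, so part of its reads may be shared with similar sequences.

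Ankrd37 (chr8:45996902-46005707, minus strand), an ankyrin repeat protein known as a HIF-1 target, was the 1 gene of the 10 called between the injections in untreated cells. With TG it stood at 3.11, 10.3 and 7.41 CPM untreated and at 13.6, 24.5 and 21.5 CPM with SPARC, with no overlap. It rose by 1.52 ± 0.39 (log2, SE, edgeR adjusted p 0.0326). The adjusted p lay between 0.0512 and 0.107 without any 1 of 7 libraries, namely each IL4c SPARC library, IL4c untreated library 2, TG untreated library 3 and TG SPARC libraries 2 and 3. The call also ended with the compared groups alone (0.144), with no low-count filter (0.0692), on log2(FPKM + 1) with no filter (0.0612) and without both IL4c libraries numbered 3 (0.0590). Its IL4c levels were 38.0, 32.6 and 22.6 CPM untreated and 45.0, 37.3 and 37.1 CPM with SPARC, and the log2 value was 0.36 ± 0.37 (SE, edgeR adjusted p 0.521). Ufsp2, which overlaps Ankrd37 on the other strand, had 1361 to 2467 counts per library. The strand setting of the counting is not given, and whether reads of Ufsp2 entered the Ankrd37 counts was not tested. Expected counts of Ankrd37 were whole numbers in every library.

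Vegfa (chr17:46016993-46032369, minus strand), the growth factor of blood vessels and the best known HIF target, had no call in either injection. With IL4c it stood at 493, 501 and 262 CPM untreated and at 251, 208 and 143 CPM with SPARC. The groups do not overlap, and all 3 pairs were lower with SPARC. The log2 value was -1.06 ± 0.40 (SE, edgeR adjusted p 0.0725). With the block it was -1.04 with an adjusted p of 0.0274. Without both TG libraries numbered 1 the adjusted p was 0.0147, without TG SPARC library 1 alone 0.0161 and without IL4c untreated library 3 0.0464. DESeq2 gave -1.07 (0.0282) and edgeR on the compared groups alone -1.05 (0.0412). Over 23 alternatives the adjusted p lay between 0.0147 and 0.223, and 6 of them called it.

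With TG, Vegfa stood at 176, 194 and 171 CPM untreated and at 80.4, 248 and 221 CPM with SPARC. Library 1 was lower with SPARC and libraries 2 and 3 were higher. The log2 value was 0.02 ± 0.39 (SE, 95% interval -0.85 to 0.90, edgeR adjusted p 0.981).

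Adm (chr7:110627661-110629820, plus strand), the vasodilator peptide adrenomedullin, was the least abundant of the 10 and reached 6.54 CPM at most. With TG it stood at 1.30, 2.29 and 1.31 CPM untreated and at 1.58, 2.96 and 1.15 CPM with SPARC, and the log2 value was 0.22 ± 0.66 (SE, edgeR adjusted p 0.880). IL4c libraries stood at 4.25, 1.45 and 0.985 CPM untreated and at 6.54, 1.78 and 2.06 CPM with SPARC. The value of 0.64 ± 0.66 (SE) had an edgeR adjusted p of 0.518, and with the block, where it was 0.65, of 0.0326, the sole call over 23 alternatives that reached 0.860.

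Ndrg1 (chr15:66929318-66969640, minus strand), a stress-induced gene often used as a marker of hypoxia, showed no shared direction. With TG it stood at 3.72, 89.2 and 64.7 CPM untreated and at 10.8, 97.1 and 59.7 CPM with SPARC, so the libraries numbered 1 were far below the others. In IL4c cells it stood at 50.9, 28.8 and 27.5 CPM untreated and at 53.8, 24.3 and 17.3 CPM with SPARC. The log2 values were 0.09 (95% interval -2.07 to 2.25) and -0.17 (-2.33 to 2.00), with edgeR adjusted p of 0.969 and 0.920. These intervals are wide enough to hold the response of P4ha1.

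Levels of different genes were compared per length, in FPKM. In TG untreated cells the means were 78.7 FPKM for Vegfa, 63.7 for Hif1a and 43.8 for Epas1, but library 1 set the order of the latter 2. In library 1 Hif1a was highest of the 10 at 107 FPKM, above Vegfa at 80.3 and Epas1 at 15.7. In libraries 2 and 3 Vegfa was highest (80.3 and 75.6), and Epas1 (50.9 and 64.8) was above Hif1a (39.0 and 44.9). With SPARC the TG means were 137 FPKM for Hif1a, 118 for Bnip3 and 12.7 for Epas1. Hif1a was above Bnip3 in library 1 (199 and 69.4) and below it in libraries 2 (99.3 and 163) and 3 (113 and 121). In IL4c untreated cells the means were 176 FPKM for Vegfa, 173 for Epas1 and 101 for Hif1a, and Epas1 was above Vegfa in library 3 alone (155 and 109). With SPARC they were 136 FPKM for Hif1a, 116 for Bnip3, 80.6 for Vegfa and 37.1 for Epas1, and Bnip3 was above Hif1a in library 1 alone (159 and 143).

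Genes of the machinery that controls the HIF proteins moved in both directions. Of 15 listed genes, all tested, 3 rose and 1 fell with TG, and 5 rose and 1 fell with IL4c, with medians of -0.06 and 0.16 on the log2 scale. Of all tested genes 11.3% passed with TG and 27.8% with IL4c, with medians of -0.03 and 0.00, so the counts of 4 and 6 of 15 are no result about this list. Vhl, the recognition subunit of the ligase that destroys HIF alpha subunits, rose from 24.0 ± 2.36 to 43.3 ± 3.90 CPM with TG (mean ± SD, n = 3, edgeR adjusted p 0.00101). With IL4c it rose from 28.5 ± 1.31 to 66.5 ± 4.35 CPM (edgeR adjusted p 5.10e-05). The elongins of the same ligase also rose, Tceb2 by 0.55 and 0.78 and Tceb1 by 0.26 and 0.28 on the log2 scale with TG and IL4c (edgeR adjusted p 0.0211 and 0.00173, 0.0417 and 0.0141). With TG, Tceb2 lost its call without both TG libraries numbered 1 (0.48, 0.0571), without TG untreated library 3 or TG SPARC libraries 2 or 3 (0.0533 to 0.0682), and on log2(FPKM + 1) with no filter (0.49, 0.0673). Tceb1 lost it with TG without any 1 of 8 libraries (0.0507 to 0.114) and with IL4c without IL4c untreated library 2 (0.0614). Those 8 were all IL4c untreated libraries, IL4c SPARC library 2, TG untreated libraries 2 and 3 and TG SPARC libraries 1 and 2. With TG, Tceb1 was at 0.14 in the 3 FPKM settings (limma adjusted p 0.299 to 0.453), and its call also ended with total counts (0.19, 0.192), with the compared groups alone (0.133) and with no low-count filter (0.0509). Tceb1 and Tceb2 are the older symbols of Eloc and Elob.

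Hif1an, an asparagine hydroxylase that restrains HIF activity, fell from 54.2 ± 0.552 to 46.8 ± 0.963 CPM with TG (n = 3, log2 -0.21, edgeR adjusted p 0.0384), and no longer passed when any 1 of the 12 libraries was left out (0.0538 to 0.201). Leaving out both TG libraries numbered 1 gave -0.18 (0.103), and it was called in 4 of 23 alternatives. Its IL4c means were 49.0 and 48.4 CPM. Hif3a, another alpha subunit, was called higher with IL4c (edgeR adjusted p 0.00309) at 0.412 to 0.568 CPM. Its IL4c untreated libraries held at most 0.0649 CPM, which is below 3 counts, and its TG libraries at most 0.152 CPM. Hif3a therefore passed the filter on low counts through the IL4c SPARC group alone, so its call is not independent of the filter. Over the 21 alternatives that tested it, its IL4c log2 value ran from 0.11 to 4.81. The TG count of 4 fell to 1 without TG untreated library 3 or TG SPARC library 2, and to 2 without IL4c untreated libraries 1, 2 or 3, IL4c SPARC library 2, TG untreated library 2, or TG SPARC libraries 1 or 3. The IL4c count of 6 fell to 3 without IL4c untreated library 2.

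Other genes known to respond to hypoxia were called higher more often than lower. Of 38 listed genes, 37 were tested. With TG, 15 rose and 1 fell (median log2 fold change 1.23), and with IL4c, 19 rose and 1 fell (median 1.07). The shares of all tested genes called higher, given above, were 6.73% and 15.1%. Of the 15 genes that rose with TG, 13 were among the 19 that rose with IL4c. The same overlap was not taken over all tested genes, so whether it is a trait of this list was not tested. When both TG libraries numbered 1 were left out, 18 rose and none fell with TG, where 1343 of all genes rose and 917 fell. Without TG untreated library 3 alone, 9 rose and none fell with TG, where 737 of all genes passed in either direction. Without IL4c untreated library 2, 12 rose and 1 fell with IL4c, where 2507 of all genes passed.

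Higd1a, a mitochondrial protein of the hypoxia response, stood at 9.48, 10.1 and 9.80 CPM in TG untreated libraries and at 26.3, 27.0 and 25.3 CPM with SPARC, a rise of 1.42 ± 0.14 (log2, SE, edgeR adjusted p 6.05e-04). With IL4c it went from 13.1, 11.1 and 12.7 to 42.5, 38.4 and 27.5 CPM, a rise of 1.55 ± 0.14 (edgeR adjusted p 1.19e-04). Gys1, glycogen synthase, rose by 2.43 with TG and 1.90 with IL4c. Mif, a macrophage cytokine, rose by 2.27 and 1.64, and the mitochondrial protein gene Fam162a by 1.73 and 2.04.

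Loxl2, a collagen-crosslinking oxidase, rose from 3.74 ± 0.777 to 69.7 ± 23.9 CPM with IL4c (n = 3, edgeR adjusted p 9.44e-04). With TG its log2 value was 1.36 (edgeR adjusted p 0.142). Angptl4, a secreted inhibitor of lipoprotein lipase named here after its values were seen, was the gene of this list that fell in both injections, with log2 values of -2.41 for TG and -3.64 for IL4c (edgeR adjusted p 0.0271 and 0.00261). On log2(FPKM + 1), which understates changes of low genes, they were -1.60 and -1.56, and without both IL4c libraries numbered 3 the IL4c value was -4.81. Its IL4c SPARC libraries held 0.158, 0.247 and 0.900 CPM. Leaving out both TG libraries numbered 1 brought its adjusted p with TG to 0.0589. Leaving out TG untreated library 3 or any 1 TG SPARC library brought it to between 0.0541 and 0.0887.

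**Figure D5:**
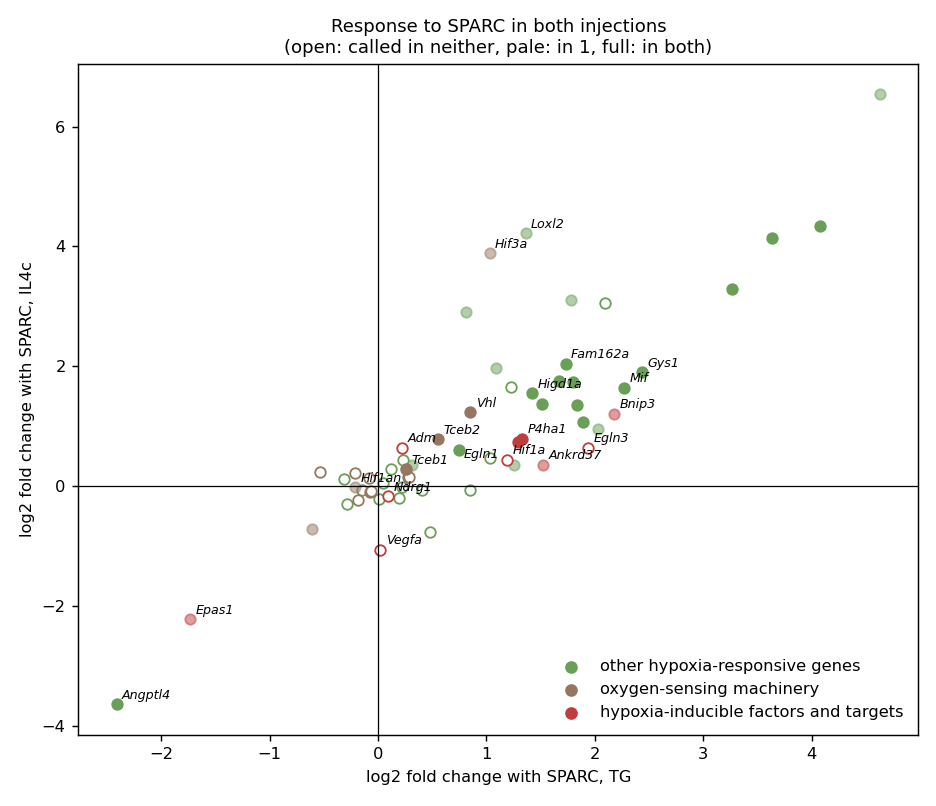
Log2 fold change with SPARC in TG (horizontal) and IL4c (vertical) macrophages for the 10 hypoxia-inducible factors and targets (red), 15 genes of the oxygen-sensing machinery (brown) and 37 other hypoxia-responsive genes (green). Open points passed in neither comparison, pale points in 1 and full points in both. Angptl4 is the 1 full point below 0 in both, and the IL4c value of Hif3a is a fitted value over an untreated group below 3 counts.

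Between the injections, 1 of the 10 genes differed in untreated cells, where 21.0% of all genes passed (10.2% higher and 10.8% lower with IL4c). By total counts the share of higher calls over all genes was 29.3% in place of 48.4%, and the median of all genes moved from -0.05 to -0.16. Ankrd37 was 4.48-fold higher with IL4c than with TG (log2 2.16 ± 0.39, SE, edgeR adjusted p 0.00602), and its libraries did not overlap, as for 18.3% of all genes on the higher side and 20.7% on the lower. The call held in all 23 alternatives. Epas1 and Vegfa were higher with IL4c in every library but missed the threshold, with log2 values of 2.07 ± 0.68 (edgeR adjusted p 0.0545) and 1.22 ± 0.40 (edgeR adjusted p 0.0547). Each was called in 6 of 23 alternatives. DESeq2 called both (adjusted p 0.00572 and 0.0110). Limma called Epas1 on filtered log2(FPKM + 1) (0.0331) and log2(FPKM + 0.1) (0.0440), and edgeR on the compared groups alone called Vegfa (0.0400). In the set without both TG libraries numbered 1, Epas1 was at 1.66 (8.74e-05), Vegfa at 1.21 (0.0170) and Hif1a at 1.33 (0.00555). Hif1a at 0.79 ± 0.40 in the full set had an adjusted p of 0.181, and without TG untreated library 1 alone 1.33 with 0.0176.

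Leaving out single libraries also brought Epas1 past the threshold without TG SPARC library 1 (0.0117), Vegfa without TG SPARC library 1 (0.0122) or IL4c untreated library 3 (0.0400), and P4ha1 without IL4c untreated library 3 (0.0253). These comparisons share their untreated libraries with the SPARC comparisons and are no independent view of them.

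With SPARC in both arms, none of the 10 genes differed between the injections by edgeR, where again 21.0% of all genes passed (10.9% higher, 10.1% lower). At an unadjusted p under 0.05 there were 2 of the 10, Epas1 at 1.57 ± 0.67 and Ankrd37 at 1.00 ± 0.38 (log2, SE). Among all 15232 tested genes 5542 were under it, so the count of 2 is not above the background. DESeq2 called 4189 genes in all, with Epas1 and Ankrd37 among them. Their edgeR adjusted p was 0.119 and 0.0853. The libraries did not overlap for either gene, as for 20.8% of all genes on the higher side and 20.6% on the lower. When both TG libraries numbered 1 were left out both passed, at 1.07 (5.86e-04) and 0.78 (0.0254), and Ankrd37 also passed without TG untreated library 1 alone (1.00, 0.0196). The log2 differences of Hif1a, Bnip3 and Egln3 were 0.04, -0.02 and 0.12, with intervals of -0.84 to 0.92, -1.11 to 1.08 and -1.83 to 2.08. A block by the number across injections, which does not pair these libraries, called 2 of the 10 genes in untreated cells, where 24.3% of all genes passed (11.7% higher, 12.6% lower). With SPARC it called none, where 25.2% of all genes passed (12.8% higher, 12.4% lower).

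The SPARC responses of the injections were also compared directly. No tested gene passed by edgeR in that contrast, which is 0% of 15232, while 1612 genes had an unadjusted p under 0.05 and DESeq2 called 364. Among the 10 genes 1, P4ha1, had an unadjusted p under 0.05, and DESeq2 called none. The log2 difference, IL4c minus TG, was -0.54 ± 0.21 for P4ha1 (SE, edgeR adjusted p 0.408) and was lowest for Egln3 and highest, at 0.42, for Adm. It was below 0 for 9 of the 10 genes, while the median over all tested genes was 0.02. The 10 genes were measured in the same libraries, so this count is no test of the set. With the block, 3.10% of all genes passed (1.50% higher, 1.60% lower), and 3 of the 10 passed, all lower.

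By order of mean CPM, Epas1 ran from TG with SPARC through IL4c with SPARC and TG untreated up to IL4c untreated. Its libraries did not overlap between the lowest pair of groups or the highest pair, and overlapped in the middle. Egln1, P4ha1 and Bnip3 shared the order TG untreated, IL4c untreated, IL4c with SPARC and TG with SPARC. For Egln1 and P4ha1 the untreated and SPARC groups were apart and the injections overlapped within each, and for Bnip3 all neighbours overlapped. Hif1a and Egln3 overlapped between all neighbours, from TG untreated to IL4c with SPARC.

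The genes whose course over the 12 libraries was closest to Hif1a were Mgat4a, Il4ra, Bcl3, Il17ra and Ccr1. Closeness was the root mean square difference of log2 CPM centred on each gene's mean, over 8597 genes of at least 10 CPM. It was between 0.22 and 0.26, against a spread of 0.68 for Hif1a itself. For Epas1, with a spread of 1.72, the closest were Tenm4 at 0.37, Gdf15 at 0.68, Plscr4 at 0.73, Rragd at 0.84 and Kitl at 0.85. Of the other factors and targets, Vegfa was nearest to Epas1, at rank 76 with 1.22, and P4ha1 nearest to Hif1a, at rank 353 with 0.52. All 12 points share library depth and the 4 groups, so these distances are descriptions without a test.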

How the data were processed

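The authors deposited unscaled expected counts per gene. FPKM values, scaled for length and depth, were deposited beside them. CASAVA, bcl2fastq 1.8.4, STAR and RSEM are named in the submitters' processing notes. The sources used here do not state the genome build, annotation or strand setting. Gene positions come from GENCODE on GRCm38, which holds 99.1% of the gene identifiers without version suffix and 82.1% with it.

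Expected counts were rounded, since 7.97% were not whole, and fitted with the quasi-likelihood test of edgeR 4.0.16 in R 4.3.3 (TMM scaling, robust). The filter filterByExpr with a minimum count of 10 left 15232 genes. All 12 libraries entered 1 fit of 4 groups with 8 residual degrees of freedom. Benjamini-Hochberg adjusted p-values under 0.05 were called. The SE was derived from the log2 fold change and its F statistic. CPM uses TMM-scaled library sizes. The steps were tested on simulated data.

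The genes and lists were chosen with earlier results of these data known. Named list genes are the up to 4 of smallest adjusted p per list and SPARC comparison. Among these, 1 gene is not reported here. Alternatives tried were total-count and RLE scaling, no filter, DESeq2 1.42.0, the compared groups alone, limma 3.58.1 on log2(FPKM + 1) with and without a filter of 1 FPKM in 3 libraries and on log2(FPKM + 0.1), a replicate block, each library left out, both TG libraries numbered 1 left out and both IL4c libraries numbered 3 left out.

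Deviations from the group means correlated at 0.342 to 0.735 in all 6 pairs of libraries with the same number and injection, at -0.659 to 0.507 between different numbers, and at -0.178 to 0.25 for the same number across injections. Numbers were therefore read as pairing libraries within an injection, from the data and not from the labels. The block is the number within each injection for the SPARC comparisons, and the number across injections for the other comparisons.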

Additional observations from a re-analysis of the deposited data

Results flagged for a closer look

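In the fit with the replicate number as a block, 3 of the 10 genes responded less to SPARC with IL4c than with TG by the test of the difference itself. Of all tested genes 3.10% passed there, 1.50% as higher and 1.60% as lower. The log2 difference, IL4c minus TG, was -0.98 ± 0.11 for Bnip3 (SE, edgeR adjusted p 0.0160), -0.55 ± 0.10 for Egln1 (edgeR adjusted p 0.0388) and -1.23 ± 0.24 for Ankrd37 (edgeR adjusted p 0.0466). All 3 TG pairs of Bnip3 (2.08, 2.06 and 2.41 on the log2 scale) exceeded all 3 IL4c pairs (1.19, 1.25 and 1.17). For Egln1 the TG pairs were 1.15, 1.29 and 1.37 and the IL4c pairs 0.78, 0.80 and 0.59, and for Ankrd37 they were 2.11, 1.25 and 1.53 against 0.24, 0.19 and 0.72. These pairs come from the same libraries as the block fit that flagged the genes, so they are no further support for it. Without the block the adjusted p was 0.708, 0.618 and 0.484, and over 22 alternatives it reached 0.913, 0.875 and 0.800. The block was the sole alternative that called them.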

How the results depend on the processing

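Over all tested genes, the count of 1714 calls for SPARC with TG became 2632 with DESeq2, 1001 on log2(FPKM + 1) with no filter, 505 with the compared groups fitted alone and 4165 with the replicate block. Leaving out 1 library gave 737 (TG untreated 3) to 2095 (TG untreated 1). For SPARC with IL4c, 4237 became 2679 without both IL4c libraries numbered 3, 6507 without both TG libraries numbered 1 and 6880 with the replicate block, and 2507 to 5178 on leaving out 1 library. Between injections, untreated, 3197 became 6002 without both TG libraries numbered 1 and 1631 with the compared groups alone (1376 to 4562). With SPARC, 3196 became 5587 without both TG libraries numbered 1 (1777 to 4293). For the difference, 0 became 364 with DESeq2, 1 without both IL4c libraries numbered 3, 836 without both TG libraries numbered 1, 3, 16 and 38 on log2(FPKM + 0.1), log2(FPKM + 1) and the latter with no filter, 2 with no filter on counts, 2 with total counts and 472 with the replicate block (0 to 278). The difference uses all 12 libraries, so the compared groups alone could not be fitted for it.

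Among the 10 genes, the 4 calls for SPARC with TG became 2 with no low-count filter, 2 with the compared groups alone and 7 with the replicate block (2 to 4 on leaving out 1 library). The 3 calls with IL4c became 5 with DESeq2, 1 without both libraries numbered 3, 1 with no filter on counts or on FPKM, and 7 with the block (1 to 4). The 1 call between injections, untreated, became 3 with DESeq2, 3 without both IL4c libraries numbered 3, 4 without both TG libraries numbered 1 and 2 with each filtered FPKM setting, the compared groups alone or the block (1 to 3). With SPARC, 0 became 2 with DESeq2, 2 without both TG libraries numbered 1 and 1 with the compared groups alone (0 to 1). For the difference, 0 became 3 with the block (0 to 0). Between injections the block is the number across injections, which does not pair these libraries. Under it Epas1 in untreated cells was at 2.34 with an edgeR adjusted p of 0.0312. The block changed no call of the 10 genes other than this and those given with their values. The cause of these changes was not tested.

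Values near 0 changed sign. For SPARC with TG, Vegfa was at -0.23 in the 3 FPKM settings, -0.12 with the block and -0.05 with total counts (-0.24 to 0.42 on leaving out 1 library), Adm ran from -0.26 to 0.58 and Ndrg1 from -0.56 to 0.73. With IL4c, Adm ran from -0.20 to 1.50, Ndrg1 from -0.77 to 0.18 and Hif1an from -0.04 to 0.02, with 0.00 in the 3 FPKM settings. Between injections, untreated, Adm ran from -0.42 to 0.81 and Ndrg1 from -1.10 to 0.07, with 0.24 on log2(FPKM + 0.1) and 0.09 in the other FPKM settings. With SPARC, Hif1a was at -0.01 with total counts (-0.10 to 0.38), Vegfa at -0.24 without both TG libraries numbered 1 (-0.23 to 0.42), and Bnip3 at 0.00 with DESeq2 or RLE and 0.30 without both IL4c libraries numbered 3 (-0.30 to 0.33). Egln3 was at -0.19 without both TG libraries numbered 1, -0.03 on log2(FPKM + 0.1), -0.02 in the other FPKM settings and -0.03 with the block (-0.33 to 0.56). For the difference, Adm ran from -0.44 to 1.28 and Ndrg1 from -0.89 to 0.40. Over all log2 values and alternatives, 49 changed sign, 84 lost a call, 43 gained one and 1511 did neither. Depth leaves Adm, the least abundant of the 10, with the fewest counts.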
